A study of Mus musculus with 8 samples.

Results

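Fatty acid desaturation and synthesis was followed in the mouse testis through 10 genes, namely Fads1, Fads2, Fads3, Elovl2, Elovl5, Elovl6, Scd1, Scd2, Fasn and Lpin1. They were found as the non-control spots of the arrays that carry these gene names, which gave 16 probes among the 41174 probes of the array. The tissue was laser-captured Sertoli-cell-rich areas, the intermediate layer of the seminiferous epithelium, from the right testis of male C57BL/6J mice aged 21 weeks. Both groups were daily gavaged for 21 days, 4 mice with di-(2-ethylhexyl) phthalate (DEHP) at 200 mg/kg/day dissolved in corn oil and 4 mice with corn oil alone (vehicle). DEHP, a plasticiser, acts as a peroxisome proliferator in rodent liver. Each DEHP mouse was hybridised with 1 vehicle mouse on 2 arrays with the dyes swapped, so that 8 arrays gave 4 independent pairs. Pairs carry the number of the DEHP mouse, and their vehicle mice were vehicle mouse 2 in pair 1, vehicle mouse 3 in pair 2, vehicle mouse 4 in pair 3 and vehicle mouse 1 in pair 4.

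The captured layer is a limit of the model. Sertoli cells, the somatic cells that nurse the germ cells, lie there among spermatocytes and spermatids, and the shared extraction text speaks of capture of Leydig cells, the steroid-producing cells between the tubules. Of 14 listed Sertoli cell markers 13 could be tested, all except Gata4, and all 7 listed spermatocyte markers and all 7 spermatid markers could be tested too. Of 8 listed Leydig cell markers 4 could be tested (Insl3, Star, Cyp17a1 and Hsd3b1), while Cyp11a1, Hsd3b6, Hsd17b3 and Lhcgr were above background in too few channels. In such tissue, fewer cells of a type and less RNA per cell cannot be told apart. The share of spots well above background ran from 49.8% to 59.5% over the channels, and the number of mice and arrays limits the precision.

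Fatty acid synthase builds palmitate from acetyl-CoA and malonyl-CoA. Elongases of the Elovl family lengthen fatty acids in the endoplasmic reticulum, and desaturases put in double bonds, with electrons passed on by cytochrome b5. The delta-6 and delta-5 desaturases Fads2 and Fads1, alternating with Elovl5 and Elovl2, turn dietary linoleic and alpha-linolenic acid into long polyunsaturated fatty acids, of which the testis and its germ cells hold a large share. Scd1 and Scd2 make monounsaturated fatty acids, and Lpin1 turns phosphatidic acid into diacylglycerol on the way to triglycerides and phospholipids.

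Several genes were read by more than 1 probe, and the results turn on whether such probes gave the same ratio. The probes are shown by their first 30 bases, 5′ to 3′, with positions on mouse build mm7 as given by the array design. The 2 Fads3 probes on chromosome 19, plus strand, start 1388 bases apart, A_51_P464029 at 9738276 to 9738335 and A_52_P451796 at 9739664 to 9739723:
Fads3 A_51_P464029: taaaatgacacggtgagcatagcatgtttt
Fads3 A_52_P451796: tacttctaagccctgttatatatacttgta
The 4 Lpin1 probes lie on chromosome 12, minus strand, 3 of them within 140 bases (16591574 to 16591713) and A_51_P394984 further along the transcript at 16590760 to 16590818. Capitals mark the printed part of the 40 bases that A_52_P483105 and A_52_P483104 share, so these probes are not independent readings of the gene:
Lpin1 A_52_P483105: ctgctgttgtgagcatcctaGCCAGATCCT
Lpin1 A_52_P483104: GCCAGATCCTTAGGCTTATAGCCGTCATGA
Lpin1 A_52_P483101: ccaaagagcctcattctgtggatgtcacac
Lpin1 A_51_P394984: tacaaatgcaccatcttagacatacagcag
The stearoyl-CoA desaturase probes, of which 1 was well above background in every channel and 1 in none, start 88363 bases apart on chromosome 19, Scd2 at 44200407 to 44200466 on the plus strand and Scd1 at 44288770 to 44288829 on the minus strand:
Scd2 A_51_P129464: acatttggggatcctctgcagaggagtatt
Scd1 A_52_P682382: actcctgggctaagtatctgacagtctcac
The design pairs probes with genes and positions but not with exons or UTRs, so these are not stated.

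No gene of fatty acid desaturation and synthesis passed the test between DEHP and vehicle. A probe entered the test when it was well above background in at least 4 of the 8 DEHP channels or 4 of the 8 vehicle channels, which 13 probes of 8 genes did, and 11 of them were above background in all 16 channels. In limma, 0 of these 13 probes had an adjusted p under 0.05, beside 0 of 22975 probes in all (0%), and their adjusted p ranged from 0.903 to 0.997. None of the 13 had an unadjusted p under 0.05 in limma, beside 1055 of 22975 (4.59%). Without pair 4 that count was 4 of 13, beside 1932 of 22975, and with array weights it was 3 of 13, beside 1138, with 0 adjusted calls in both. Of the brightest probes per gene, only those of Lpin1 (lower) and Scd2 (higher) were counted in either setting. The rest of these counts were further probes of genes read by more than 1 probe. The 95% intervals of the 13 probes reached from 0.646-fold to 1.36-fold (DEHP over vehicle). On the scanner software's own ratios, which differ in background correction, normalisation and offset, the interval of Fads1 reached 1.82-fold. It reached 1.07-fold in the main fit, 1.1-fold with an offset of 16 in place of 50 and 1.09-fold without background correction. Other genes also went past 1.36-fold on the scanner software's ratios, with Scd2 at 1.52-fold, Fads2 at 1.43-fold and Elovl5 at 1.41-fold. With median centring, the interval of Elovl5 reached 1.59-fold.

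Taken by gene with the brightest tested probe, 3 of 8 genes had a mean log2 ratio above 0 and 5 below. Fads1, counted below 0 at -0.013, passed the filter through its vehicle channels alone (4 of 8, against 3 of 8 for DEHP). The sign of Fads1 is therefore not independent of the filter. For the 8 genes the median log2 ratio was -0.0087, beside -8.4e-05 over all 16969 genes tested. Their median size without sign was 0.072 beside 0.059. The pair medians over the 8 genes were -0.056, 0.043, -0.31 and 0.020 in pairs 1 to 4, so pair 3 was the lowest. Among the 13 probes, 2 were lower in all 4 pairs (1 of Fads3, 1 of Lpin1), beside 1626 of 22975 (7.08%), and 0 were higher in all 4, beside 1507 (6.56%). In none of the 13 did the levels of the 4 DEHP mice and the 4 vehicle mice fail to overlap, beside 415 of 22975 (1.81%).

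**Figure D1:**
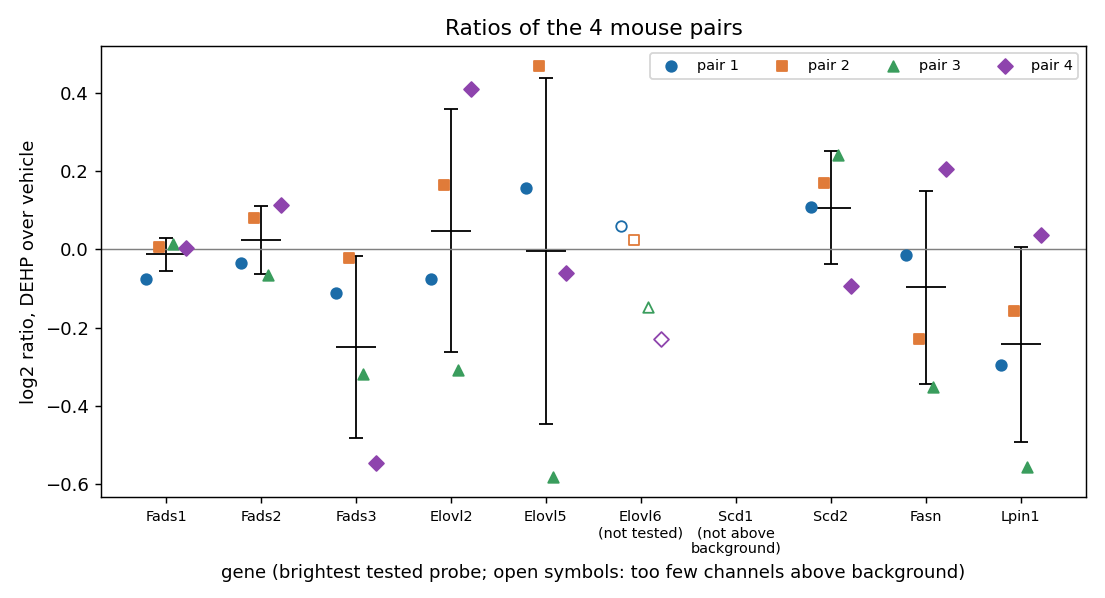
Log2 ratio of DEHP over vehicle (vertical axis) for the 10 genes (horizontal axis), with 1 symbol per mouse pair and, for the 8 tested genes, the mean and SD of the 4 pairs as a black bar. Open symbols are Elovl6, which was not tested, and Scd1, in no channel above background, has no symbols; the pairs fall on both sides of 0 for every tested gene except Fads3, whose 4 values lie between -0.55 and -0.022.

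Fads3, a member of the desaturase family that acts on sphingoid bases and whose role in polyunsaturated fatty acids is less clear than that of its relatives, had a mean ratio close to that of Lpin1, the 2 lowest of the 8 genes on their brightest probes; which of the 2 was lower changed with the processing. On its brighter probe, the log2 ratios were -0.11, -0.022, -0.32 and -0.55 in pairs 1 to 4, with a mean of -0.25 ± 0.23 (SD, n = 4 pairs; 95% interval -0.50 to 0.0045; limma adjusted p 0.903). All 4 pairs were lower with DEHP, pair 2 barely so and pair 4 most. In the ratios deposited by the authors pair 2 was above 0 on this Fads3 probe (-0.158, 0.06, -0.36 and -0.608). The log2 levels of the 4 DEHP mice were 8.72, 8.84, 8.75 and 8.72, and those of vehicle mice 1 to 4 were 9.27, 8.83, 8.86 and 9.07. The DEHP mice lay close together (8.76 ± 0.054), while the vehicle mice were spread (9.01 ± 0.20), and vehicle mouse 2 lay within the DEHP range.

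The Fads3 ratios differed with the dye orientation. With DEHP in Cy5 they were 0.15, 0.071, -0.14 and -0.36 in pairs 1 to 4, and with DEHP in Cy3 they were -0.37, -0.11, -0.50 and -0.73. The Cy5 array gave the higher ratio in all 4 pairs, and pairs 1 and 2 had opposite signs in the 2 orientations. Averaging the orientations cancels a shift of that kind; slide and dye orientation cannot be told apart, since each orientation was on 1 slide. The second Fads3 probe, above background in 6 of 8 DEHP and 7 of 8 vehicle channels, had -0.0050, 0.0068, -0.18 and -0.17 (mean -0.087 ± 0.10, limma adjusted p 0.903). On both Fads3 probes pairs 3 and 4 were the low ones, and in pair 2 the sign differed between probes.

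The other genes of the Fads cluster had mean ratios near 0. Fads2, the delta-6 desaturase and first step of polyunsaturated fatty acid synthesis, was above background in all 16 channels and had log2 ratios of -0.036, 0.080, -0.066 and 0.11 in pairs 1 to 4. Its mean was 0.023 ± 0.087 (95% interval -0.11 to 0.16, limma adjusted p 0.964), with 2 pairs higher and 2 lower. The levels of Fads2 were 7.69, 7.78, 7.75 and 7.80 in the DEHP mice and 7.69, 7.73, 7.70 and 7.82 in vehicle mice 1 to 4. With this processing the groups lay on top of each other. The ratios deposited by the authors were more spread, at -0.148, 0.701, -0.043 and 0.12 in pairs 1 to 4 (SD 0.379). How close the Fads2 values lie thus depended on the processing. The Fads2 probe starts 6109 bases from the brighter Fads3 probe on chromosome 19 (9744385 to 9744815, minus strand), and its 60 bases span 431 bases of the genome, so it crosses at least 1 gap in the alignment.

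Fads1, the delta-5 desaturase, was close to the detection limit, with its probe (chromosome 19, 9876165 to 9876224) above background in 3 of 8 DEHP channels and 4 of 8 vehicle channels. Its log2 ratios were -0.075, 0.0068, 0.014 and 0.0023, with a mean of -0.013 ± 0.042 (95% interval -0.12 to 0.095, limma adjusted p 0.976). Pair 1 stood apart from the other 3 pairs. Among the levels, DEHP mouse 4 and vehicle mouse 1, which were on the same 2 arrays, read 7.40 and 7.39, and the other 6 mice read 6.95 to 7.10. The part of the arrays in these levels was not tested.

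**Figure D2:**
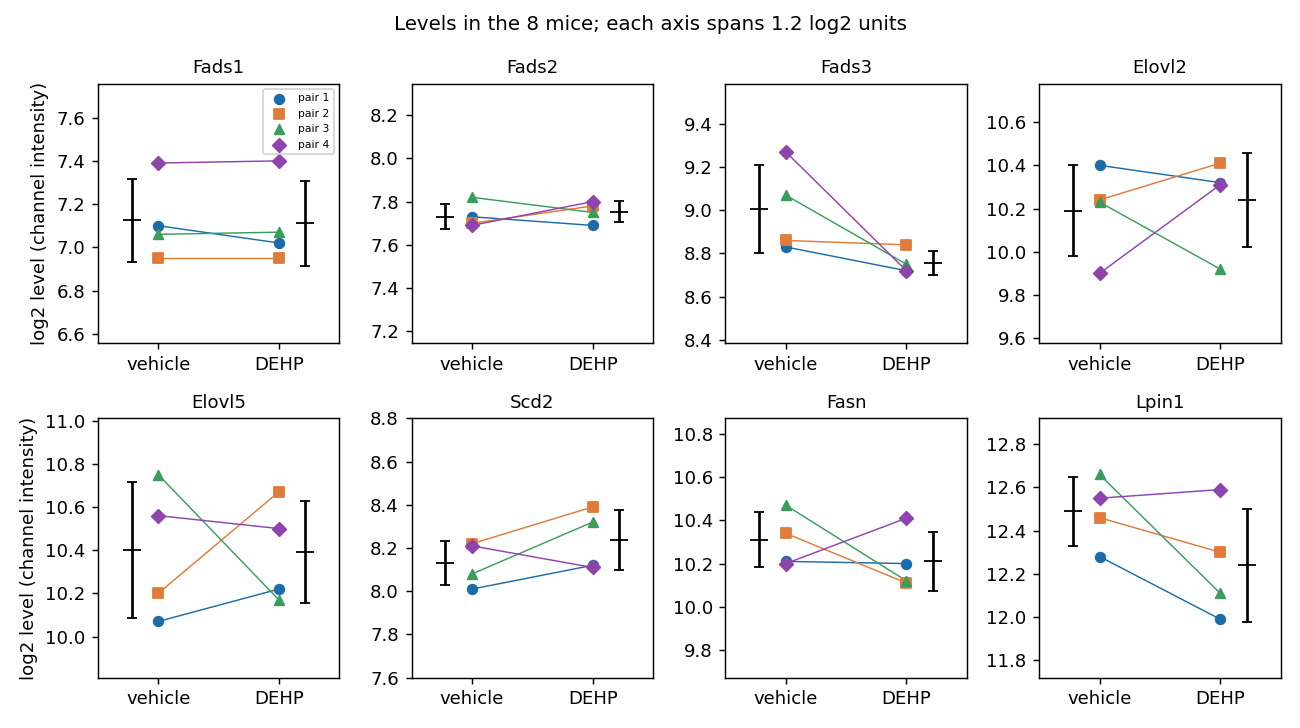
Log2 level (channel intensity after normalisation within and between arrays, vertical axes) of the 8 tested genes in vehicle and DEHP mice, with lines joining the mice of a pair and black bars for the mean and SD of each group of 4. The axes all span 1.2 log2 units; the groups overlap in every panel, and in Fads1 both mice of pair 4 stand above the rest.

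The elongases of polyunsaturated fatty acids differed between pairs. Elovl5, which lengthens the products of Fads2 and Fads1, had log2 ratios of 0.16, 0.47, -0.58 and -0.061 in pairs 1 to 4 (probe on chromosome 9, 78025742 to 78025801). Its mean was -0.0044 ± 0.44 (95% interval -0.46 to 0.45, limma adjusted p 0.997), the widest spread of the 13 tested probes. Pair 2 was the highest and pair 3 the lowest in both dye orientations, 0.61 and -0.32 where DEHP was in Cy5 and 0.32 and -0.84 where it was in Cy3. The levels were 10.22, 10.67, 10.17 and 10.50 in the DEHP mice and 10.56, 10.07, 10.20 and 10.75 in vehicle mice 1 to 4, with overlapping ranges and mice high and low in both groups. A second Elovl5 probe, 605 bases away, was above background in 1 DEHP channel and 0 vehicle channels and was not tested.

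Some marker lists had the same order of pairs, and others did not. The median log2 ratio of the 13 Sertoli cell markers was 0.11, 0.14, -0.13 and 0.022 in pairs 1 to 4, and that of the 4 Leydig cell markers was -0.20, 0.40, -0.85 and -0.23, with Insl3, a peptide hormone of Leydig cells, at -0.98, 2.23, -1.49 and -0.25. Pair 2 was the highest and pair 3 the lowest for both lists, as for Elovl5, but Cyp17a1 of the Leydig list had -0.0033, -0.068, -0.24 and -0.29. The 7 spermatocyte markers, of germ cells, also had this order (-0.0068, 0.093, -0.20 and -0.11). Peritubular myoid markers were highest in pair 1 (0.32, 0.035, -0.12 and 0.20), and macrophage markers (-0.069, 0.0011, -0.14 and 0.023) and endothelial and blood markers (-0.046, -0.0045, -0.076 and 0.044) were highest in pair 4, while pair 3 was the lowest for all 3 lists. Pair 3 was not the lowest for the other germ cells. Markers of spermatogonia were lowest in pair 4 (-0.042, 0.065, -0.036 and -0.082). Spermatid markers were lowest in pair 1 and highest in pair 4 (0.11, 0.14, 0.22 and 0.31). Over the mice, the summed log2 level of the Leydig cell markers ran from 11.58 to 13.48 with DEHP and from 11.66 to 13.46 with vehicle, and that of the Sertoli cell markers from 15.11 to 15.61 and from 14.92 to 15.49. All 7 spermatid markers had a mean log2 ratio above 0 (median 0.14, 0 called in limma), beside 8474 of all 16969 genes. Prm2 (0.0094) and Acrv1 (0.037) were close to 0, each with 2 pairs higher and 2 lower. The summed levels of the spermatid markers ran from 18.93 to 19.46 in DEHP mice and from 18.86 to 19.35 in vehicle mice. The part of these cells in the ratios of Elovl5 and the other genes was not tested.

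Elovl2, which makes the longest polyunsaturated chains and is required for normal spermatogenesis in mice, was above background in all 16 channels (chromosome 13, 40622319 to 40622378). It had log2 ratios of -0.077, 0.17, -0.31 and 0.41 in pairs 1 to 4, with a mean of 0.048 ± 0.31 (95% interval -0.28 to 0.37, limma adjusted p 0.971). Its levels were 10.32, 10.41, 9.92 and 10.31 in the DEHP mice and 9.90, 10.40, 10.24 and 10.23 in vehicle mice 1 to 4. DEHP mouse 3 and vehicle mouse 1 were the low ones, 1 in each group. As with Fads3 and Elovl5, the array with DEHP in Cy5 gave the higher Elovl2 ratio in all 4 pairs, with means of 0.22 and -0.12 in the 2 orientations.

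Elovl6, the elongase of palmitate to stearate, was above background in 2 DEHP and 3 vehicle channels (chromosome 3, 129477684 to 129477743) and was not tested. Its log2 ratios were 0.060, 0.025, -0.15 and -0.23, all 4 of them with the same sign in both dye orientations. They are values close to background.

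**Figure D3:**
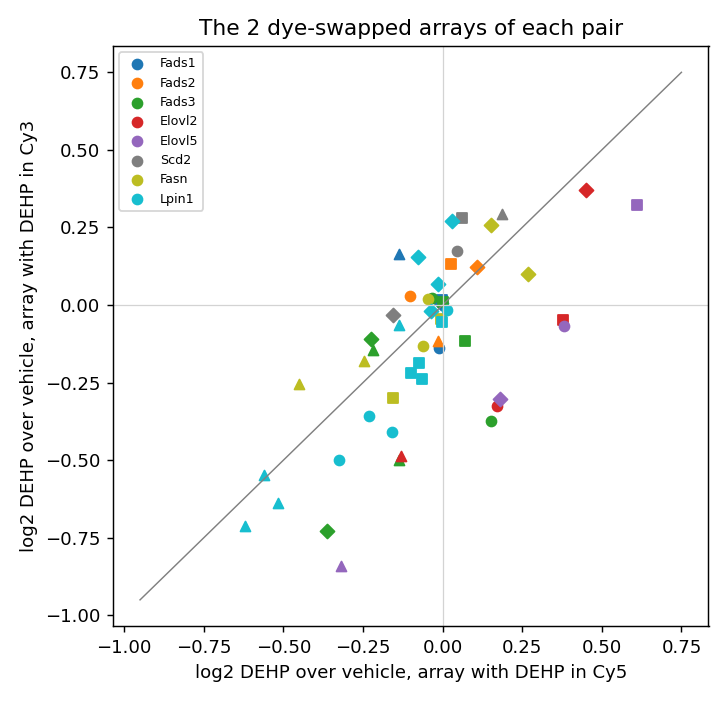
Log2 ratio of DEHP over vehicle on the array with DEHP in Cy3 (vertical axis) against the array with DEHP in Cy5 (horizontal axis), for the 13 tested probes coloured by gene; circles, squares, triangles and diamonds are pairs 1, 2, 3 and 4, and the line marks equality. Points of Fads3's brighter probe, Elovl2 and Elovl5 lie below the line in all 4 pairs; over all 52 points 37 have the same sign on both arrays.

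Of the stearoyl-CoA desaturases, which introduce the double bond of oleate, 1 of 2 was measured. Scd2 was well above background in all 16 channels and Scd1, the main form of liver and skin, in 0 of 16, so no ratio is given for Scd1. Scd2 had log2 ratios of 0.11, 0.17, 0.24 and -0.095 in pairs 1 to 4, with a mean of 0.11 ± 0.14 (95% interval -0.069 to 0.28, limma adjusted p 0.903). It was higher with DEHP in 3 pairs and lower in pair 4, and each pair had the same sign in both dye orientations. The Scd2 ratios deposited by the authors were -0.038, 0.618, 0.331 and -0.048, so pair 1 differed in sign. Its levels were 8.12, 8.39, 8.32 and 8.11 in the DEHP mice and 8.21, 8.01, 8.22 and 8.08 in vehicle mice 1 to 4. DEHP mice 2 and 3 lay above all vehicle mice, and the other 2 DEHP mice lay among them.

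Fasn, fatty acid synthase, was read by 2 probes on chromosome 11, minus strand, that start 794 bases apart (120916191 to 120916250 and 120915397 to 120915456). The brighter one had log2 ratios of -0.014, -0.23, -0.35 and 0.21 in pairs 1 to 4 (mean -0.097 ± 0.25, 95% interval -0.36 to 0.17, limma adjusted p 0.927). The other had -0.098, -0.026, -0.21 and 0.18 (mean -0.038 ± 0.17, limma adjusted p 0.958). The probes had the same sign in every pair, lower in pairs 1 to 3 and higher in pair 4. On the brighter probe the DEHP mice read 10.20, 10.11, 10.12 and 10.41 and vehicle mice 1 to 4 read 10.20, 10.21, 10.34 and 10.47, which overlap.

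Lpin1 is the phosphatidate phosphatase of glycerolipid synthesis that also acts as a transcriptional coactivator. Its brightest probe, A_52_P483105, had log2 ratios of -0.29, -0.16, -0.55 and 0.038 in pairs 1 to 4, with a mean of -0.24 ± 0.25 (95% interval -0.51 to 0.026, limma adjusted p 0.903). As on the brighter Fasn probe, pair 3 was the lowest and pair 4 the highest, but pairs 1 and 2 were in the opposite order. Pairs 1 to 3 were lower with DEHP in both dye orientations, and pair 4 changed sign between them, at -0.079 where DEHP was in Cy5 and 0.15 where it was in Cy3. The levels were 11.99, 12.30, 12.11 and 12.59 in the DEHP mice and 12.55, 12.28, 12.46 and 12.66 in vehicle mice 1 to 4. DEHP mice 1 and 3 lay below every vehicle mouse, and DEHP mouse 4 lay above 3 of the 4.

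The 3 Lpin1 probes within 140 bases of each other gave nearly the same values, and the fourth did not. A_52_P483104, which shares 40 bases with the first, had -0.28, -0.15, -0.58 and 0.027 (mean -0.25 ± 0.25), and A_52_P483101, which shares none, had -0.41, -0.13, -0.67 and 0.15 (mean -0.26 ± 0.35). A_51_P394984, which starts 814 bases from it, had -0.0014, -0.028, -0.100 and -0.028 (mean -0.039 ± 0.042, limma adjusted p 0.927). That probe was lower in all 4 pairs, but by little, and pair 3 was again the lowest. Its signal was also the dimmest of the 4 (mean log2 intensity 8.31, against 11.93 to 12.37), and the part of signal or transcript form in the difference between probes was not tested.

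**Figure D4:**
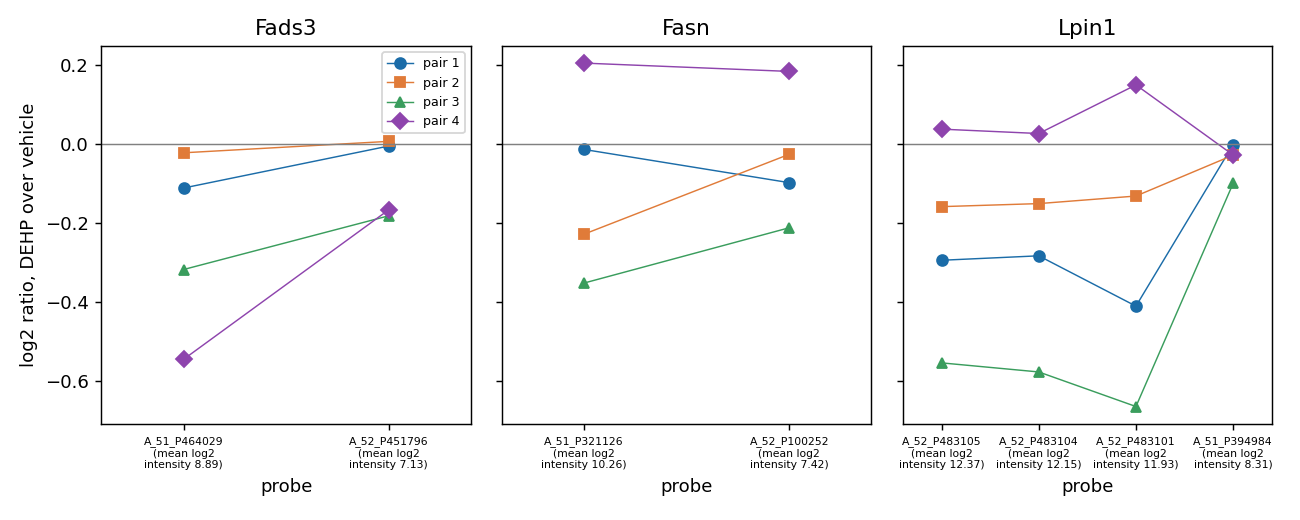
Log2 ratio of DEHP over vehicle (vertical axis) on each tested probe of Fads3, Fasn and Lpin1 (horizontal axis, with the mean log2 intensity of the probe), with 1 line per mouse pair. The order of pairs is kept over the 3 brighter Lpin1 probes, and all 4 pairs of the dimmest one lie between -0.100 and -0.0014.

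Over the 8 mice, the members' levels did not move as 1 block. Of 28 gene pairs, 17 had a positive correlation of levels and 11 a negative one, from -0.58 (Scd2 with Fasn) to 0.75 (Fasn with Lpin1), with a median of 0.19 (Pearson's r as a description; the 2 mice of a pair share their arrays). After Fasn with Lpin1, the highest were Elovl5 with Lpin1 at 0.63 and Fads3 with Lpin1 at 0.59. Among 13490 genes, the 3 whose levels were most like a member's over the 8 mice were Echs1 (r 0.955), Vim (0.919) and Shtn1 (0.917) for Fads2 and Ms4a4b (0.991), Ctnnd2 (0.986) and Wtap (0.98) for Fads3. They were Snx1 (0.961), Btbd10 (0.946) and Lrit1 (0.941) for Elovl2 and Selenbp1 (0.959), Actr2 (0.952) and Htra1 (0.952) for Elovl5. For Scd2 they were Mrpl32 (0.975), Prpf38a (0.972) and Abracl (0.967), for Fasn Csnk1a1 (0.907), Mast2 (0.903) and Tpcn1 (0.9), for Lpin1 Sipa1l3 (0.972), Tns3 (0.96) and Slc6a8 (0.958), and for the dim Fads1 Taf7l (0.974), Polm (0.971) and Fam243 (0.97). With so many genes and 8 mice, a high r for the best match is a property of the search as well.

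The rest of the pathway was followed through 54 listed genes, of which 50 could be tested. In limma 0 of the 50 were called and 2 had an unadjusted p under 0.05, beside 815 of all 16969 genes, and 24 had a mean log2 ratio above 0 and 26 below (median -0.0044). Among the partners of desaturation, Cyb5a, the cytochrome b5 that hands electrons to the desaturases and also aids steroid synthesis in Leydig cells, had the highest mean of its list. Its log2 ratios were 0.41, 0.055, 0.35 and 0.45 in pairs 1 to 4, with a mean of 0.32 ± 0.18 (95% interval 0.11 to 0.52, limma adjusted p 0.903). The levels of Cyb5a were 10.89, 10.67, 10.88 and 10.63 in the DEHP mice and 10.19, 10.48, 10.62 and 10.53 in vehicle mice 1 to 4. The groups did not overlap, beside 415 of 22975 probes in all (1.81%), and DEHP mouse 4 and vehicle mouse 3 nearly met. Cyb5a was picked out of 50 tested genes, so this is given as a description. The reductase Cyb5r3 had -0.028 ± 0.15 and the mitochondrial form Cyb5b had -0.029 ± 0.21. The sphingolipid desaturase Degs1 had -0.15 ± 0.18, and the desaturase relatives Fads6 and Scd3 had 0.012 ± 0.075 and 0.026 ± 0.031; Scd4 and Degs2 were not tested. The list was thus split 3 above 0 and 3 below, with a median of -0.0079. Scd3, counted above 0, passed the filter through its DEHP channels alone (4 of 8, against 1 of 8 for vehicle). The sign of Scd3 is therefore not independent of the filter.

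In the elongation cycle, 6 of 8 tested genes had a mean above 0 and 2 below (median 0.029), and Elovl4 was not tested. Hacd2, a dehydratase of the cycle, had log2 ratios of -0.28, -0.046, -0.073 and -0.31 (mean -0.18 ± 0.14, 95% interval -0.35 to -0.0079, limma adjusted p 0.903), while its second probe had a mean of -0.047. The reductases Hsd17b12 and Tecr had 0.032 ± 0.018 and 0.026 ± 0.094, and the elongases Elovl1, Elovl3 and Elovl7 had 0.069, 0.024 and 0.059. Hsd17b12, near background, passed the filter through its DEHP channels alone (6 of 8, against 3 of 8 for vehicle). Its sign is therefore not independent of the filter. The other dehydratases, Hacd1 and Hacd3, had 0.066 ± 0.062 and -0.010 ± 0.29. Of the 7 genes that supply acetyl-CoA and malonyl-CoA, 3 were above 0 and 4 below, with the carboxylases Acaca and Acacb at 0.037 ± 0.066 and 0.075 ± 0.060 and citrate lyase Acly at 0.042 ± 0.095. Acetyl-CoA synthetase Acss2 had -0.062 ± 0.36, malic enzyme Me1 -0.081 ± 0.18, the citrate carrier Slc25a1 -0.028 ± 0.22 and malonyl-CoA decarboxylase Mlycd -0.024 ± 0.089. In mitochondrial fatty acid synthesis, Oxsm, Mcat and Mecr had -0.019 ± 0.38, -0.13 ± 0.36 and 0.074 ± 0.098. A second Oxsm probe had -0.14, -0.0012, -0.11 and -0.49 in pairs 1 to 4 (mean -0.19 ± 0.21, limma adjusted p 0.903). Its groups did not overlap, beside 415 of 22975 probes in all (1.81%), but they nearly met at a log2 level of 7.56.

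On their brightest tested probes, all 5 acyl-CoA synthetases, which activate fatty acids for use, had a mean below 0 (median -0.16), without a call. Over all genes tested, 8495 of 16969 had a mean below 0. Other tested probes had means of -0.23 and -0.023 for Acsl1, 0.059 for Acsl4, and -0.049 and 0.052 for Acsl6. In Acsl1 and Acsl5, pair 1 stood furthest from 0: Acsl1 had -0.65, 0.22, -0.048 and -0.14, and Acsl5 had -0.90, 0.11, 0.19 and -0.040. Acsl4 had 2 pairs below 0 and 2 above (-0.33, 0.30, -0.29 and 0.31, mean -0.0056 ± 0.36). Acsl6 had -0.19 ± 0.33 and Acsl3 -0.018 ± 0.17. Among 9 genes of glycerolipid assembly, 2 were above 0 and 7 below (median -0.046), with Dgat2, an enzyme of the last step of triglyceride synthesis, at -0.17 ± 0.24 and the lipid droplet protein Plin2 at -0.14 ± 0.19. The other lipins, Lpin2 and Lpin3, had -0.019 ± 0.20 and -0.056 ± 0.21. The acyltransferases Gpam, Agpat1, Agpat2 and Agpat3 had 0.065 ± 0.12, -0.046 ± 0.22, 0.064 ± 0.19 and -0.049 ± 0.35, and Dgat1 had -0.025 ± 0.19.

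Of 12 tested control factors, 9 had a mean above 0 and 3 below (median 0.045). Insig1, which holds the sterol regulatory element-binding proteins in the endoplasmic reticulum and is itself one of their targets, had log2 ratios of 0.16, 0.017, 0.84 and 0.49 (mean 0.38 ± 0.37, 95% interval -0.0032 to 0.76, limma adjusted p 0.903). All 4 pairs were higher, but its second probe had a mean of 0.14 ± 0.30. Srebf1, the transcription factor that drives Fasn and Scd genes in liver, had 0.42, 0.11, 0.40 and -0.36 (mean 0.14 ± 0.36). The nuclear receptors Ppara and Pparg, through which peroxisome proliferators and fatty acids act, had 0.034 ± 0.21 and 0.011 ± 0.21, each with pairs on both sides of 0. The oxysterol receptors Nr1h2 and Nr1h3 had 0.12 ± 0.11 and 0.065 ± 0.11, and the carbohydrate-responsive factor Mlxipl had 0.055 ± 0.066. Srebf2, the factor of cholesterol synthesis, had 0.090 ± 0.062 on its brightest probe, while its other 3 probes had means of -0.18, -0.044 and -0.032. Its processing partners Scap, Mbtps1 and Mbtps2 had -0.068 ± 0.13, 0.0090 ± 0.29 and -0.091 ± 0.15, and Insig2 had -0.0032 ± 0.046; Thrsp was not tested.

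**Figure D5:**
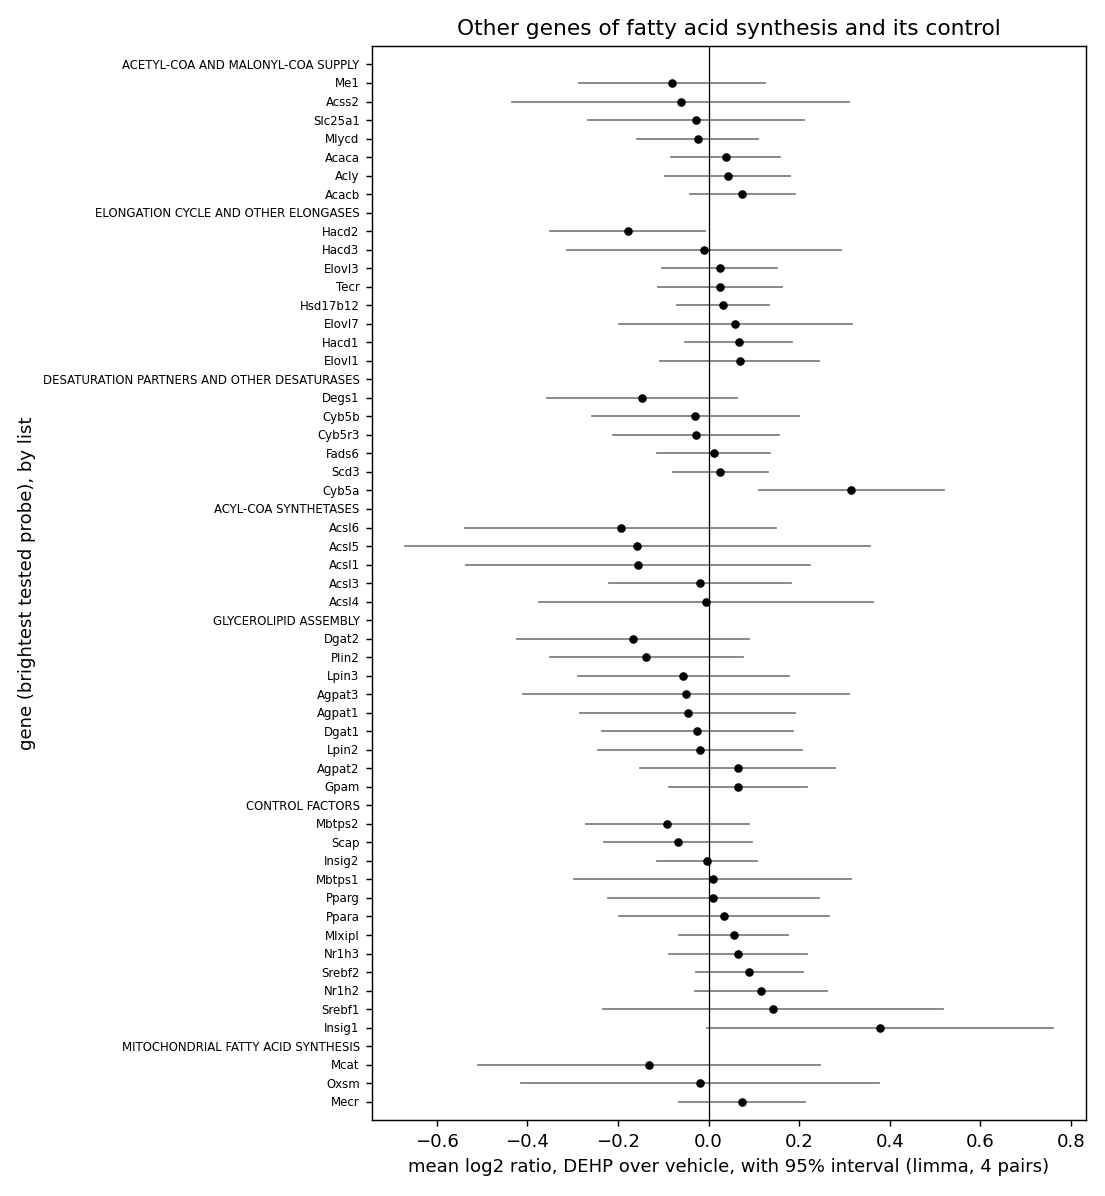
Mean log2 ratio of DEHP over vehicle (horizontal axis) with its 95% interval from limma for the 50 tested genes of the pathway outside the 10 members (vertical axis), grouped by list. The intervals of Cyb5a (0.11 to 0.52) and Hacd2 (-0.35 to -0.0079) leave out 0 before adjustment for multiple tests, and the others include it.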

How the data were processed

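RNA from laser-captured areas of 8 mice was amplified in 2 rounds and hybridised on 8 2-colour Agilent arrays, per the labels' protocols. Foreground and background intensity were deposited as scanned, and a log10 ratio was computed by Agilent Feature Extraction 9.5.1.1, per the file headers. A deposited table by the authors holds log2 ratios (limma, per the submitters' processing notes). Its rows and direction, DEHP over vehicle, were found from the values (r 0.644 to 0.967 with the recomputed ratios), its column medians ran from -0.00223 to 0.0116, and its normalisation was not given in the sources used here.

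Intensities were corrected by normexp (offset 50), normalised by loess, turned to DEHP over vehicle and averaged over the 2 arrays of a pair. Outlier spots were left out. The pair means were tested on the 22975 probes that passed the filter on background with limma 3.58.1 in R 4.3.3 (2-sided, Benjamini-Hochberg, threshold 0.05; packages data.table, version 1.17.8, and statmod, version 1.5.0). Mouse levels came from Aquantile normalisation. Each gene was represented by its brightest tested probe. Scripts were tested on simulated data.

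Pairs come from the array titles. Dye-swapped arrays of the same pair correlated by 0.539 to 0.717 over probes, and arrays of different pairs by -0.358 to 0.0609. Members and lists were chosen with earlier results of these data known. Named genes were all 10 members, all tested pathway genes and, per member, the 3 genes of most similar level.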

Additional observations from a re-analysis of the deposited data

Results flagged for a closer look

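In 4 of 89 sets of 4 pair ratios (members and pathway genes), 1 pair lay far from the other 3; chance gives this in about 1 in 20 sets. Fads1 had -0.0752 in pair 1 against 0.0023 to 0.014 in the others, on a probe near background. Acsl3, an acyl-CoA synthetase, had -0.278 in pair 4 against 0.053 to 0.085. Mbtps1, the protease that begins the release of sterol regulatory element-binding proteins, had -0.419 in pair 3 against 0.11 to 0.20, while its other probe had a mean of 0.044. Oxsm, of mitochondrial fatty acid synthesis, had 0.547 in pair 1 against -0.29 to -0.16, while its other probe had -0.14 in that pair.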

How the results depend on the processing

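No alternative gave a call: 0 probes and 0 member probes passed in limma under each of the 16 settings run, with 497 (without pair 3) to 2426 (DEHP in Cy3 alone) probes at an unadjusted p under 0.05 and a lowest adjusted p of 0.444. Of the 13 member probes, 0 had an unadjusted p under 0.05, against 4 without pair 4, 3 with array weights, 2 with DEHP in Cy3 alone or with the slide as a term, and 0 or 1 otherwise. Fads3 (-0.429 to -0.0699), Lpin1 (-0.336 to -0.109), Fasn (-0.198 to -0.0123) and Scd2 (0.034 to 0.225) kept their sign in all 17 alternatives. Lpin1 was below Fads3 with the mean over all tested probes (-0.198 and -0.168), without background correction (-0.257 and -0.228), on Agilent's ratio (-0.242 and -0.228) and with array weights (-0.235 and -0.137). The same held with DEHP in Cy5 alone (-0.242 and -0.0699) and without pair 4 (-0.336 and -0.151). Elovl5 turned to 0.0193 without background correction, 0.076 with median centring, 0.0329 on Agilent's processed ratio, 0.213 with DEHP in Cy5 alone, 0.181 with array weights and 0.043 in the authors' deposited table, and ranged from -0.162 to 0.188 without 1 pair. Elovl2 turned to -0.122 with DEHP in Cy3 alone and ranged from -0.0735 to 0.166 without 1 pair. Fads1 turned to 0.000678 without background correction, 0.271 on Agilent's ratio and 0.0125 with DEHP in Cy3 alone, and ranged from -0.022 to 0.00769 without 1 pair. Fads2 ranged from -0.00721 to 0.0527 without 1 pair. The causes were not tested. The median over the members moved from -0.00872 by less than the spread between pairs (SD 0.164) in all 17. Without the pairing (no replicate block), Fads3 had -0.249 (limma adjusted p 0.999) and 0 probes were called.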
